A study of Mus musculus with 16 samples.

Results

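The mouse antibody light chain variable (V) segments are the rows of the deposited count table whose symbol starts with Igkv (kappa) or Iglv (lambda). They number 163 of the 48593 genes counted, 160 Igkv on chromosome 6 and 3 Iglv on chromosome 16, and 103 are annotated as V genes and 60 as V pseudogenes. They were measured by bulk RNA sequencing in 16 libraries of splenic germinal centre B cells, sorted as B220+ PNA+ CD95+ from mice given sheep red blood cells (SRBC) into the peritoneum. The treatment tag puts collection 10 days and the growth protocol 12 days after immunisation. The 5 groups were taken from the sample titles. The Crebbp knockout (KO) group held 3 libraries of homozygous knockout cells and was set against KO cohort WT, 3 wild-type libraries. In the RH cohort, RH HOMO (3 libraries, homozygous Crebbp RH knock-in) and RH HET (4 libraries, heterozygous knock-in) were set against RH cohort WT (3 wild-type libraries). The series title calls both alleles conditional and specific to germinal centre B cells; no source used here names the Cre driver or says whether wild-type mice carried it. RH cohort WT 1 is titled as an RH cohort library, while its batch tag names the KO cohort. Replicate numbers follow accession order, and no label says whether libraries came from separate mice, so the spread behind each p-value is that of these libraries and may be technical.

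Each developing B cell assembles its light chain by joining a V segment to a joining (J) segment, which is then spliced to a constant (C) gene. Kappa is usually tried before lambda, and kappa V segments lie along the locus in both orientations, so that some join by deletion and others by inversion. The V segment supplies most of the antigen-binding face of the chain, and its 3′ end, just past the conserved cysteine of framework 3, starts the third complementarity-determining region. In germinal centres, B cells compete for antigen and for T cell help, and the V usage of the sorted cells is that of the founding and selected clones. Crebbp is a lysine acetyltransferase that acts as a transcriptional coactivator and is often mutated in germinal centre lymphomas.

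The last 60 bases of 11 V segments named in the results are printed here for reference, and no usage value was computed from these bases. They comprise the 3 most used segments, 3 members of the Igkv3 family, the pair that differed between wild-type groups, and the 3 lambda segments. The bases run 5′ to 3′ on the coding strand and were read from GENCODE transcripts on GRCm38 (mm10). Capitals mark the conserved cysteine codon.
Igkv1-117 (chr6:68121768-68121827, plus strand): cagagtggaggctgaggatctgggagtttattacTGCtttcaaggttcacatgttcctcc
Igkv1-135 (chr6:67610449-67610508, plus strand): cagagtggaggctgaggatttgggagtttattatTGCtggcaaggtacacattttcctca
Igkv14-111 (chr6:68256810-68256869, plus strand): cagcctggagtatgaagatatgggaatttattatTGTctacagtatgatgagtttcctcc
Igkv3-2 (chr6:70699008-70699067, plus strand): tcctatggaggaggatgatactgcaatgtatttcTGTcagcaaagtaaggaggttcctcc
Igkv3-7 (chr6:70607977-70608036, plus strand): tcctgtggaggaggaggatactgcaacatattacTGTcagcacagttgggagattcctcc
Igkv3-12 (chr6:70518790-70518849, plus strand): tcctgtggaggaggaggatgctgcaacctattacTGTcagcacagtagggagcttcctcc
Igkv8-21 (chr6:70314895-70314954, minus strand): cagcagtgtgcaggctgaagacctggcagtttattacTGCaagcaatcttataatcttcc
Igkv1-99 (chr6:68542363-68542422, plus strand): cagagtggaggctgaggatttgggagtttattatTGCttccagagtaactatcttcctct
Iglv1 (chr16:19085017-19085076, minus strand): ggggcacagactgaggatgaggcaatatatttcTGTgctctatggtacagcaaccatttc
Iglv2 (chr16:19260401-19260460, minus strand): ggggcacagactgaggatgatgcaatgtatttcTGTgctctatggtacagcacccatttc
Iglv3 (chr16:19241207-19241266, minus strand): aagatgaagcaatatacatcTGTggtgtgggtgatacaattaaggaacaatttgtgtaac
Over their transcripts, Iglv1 and Iglv2 were 96.7% identical (354 of 366 aligned bases), while Iglv3 was 60.8% identical to Iglv1 and 60.3% to Iglv2. Within Igkv3, Igkv3-7 and Igkv3-12 were 96.7% identical, and Igkv3-2 was 87.7% identical to Igkv3-7 and 88.3% to Igkv3-12. Igkv1-117 and Igkv1-110, both among the 12 most used segments, were 97.5% identical (391 of 401 aligned bases). Reads from near-identical segments may have been split or dropped by the counting, so the split between such pairs is uncertain. The share of 50-base words also found in another V segment was 49.9% for Igkv1-117, 36.5% for Igkv1-135, 21.3% for Igkv3-2, 22.2% for Iglv1, and 0.0% for Igkv14-111, Igkv16-104 and Iglv3. Mutated germinal centre reads may also have been lost in alignment, which was not tested.

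Total counts were 41362856 to 93040297 per library, and light chain V counts 34279 to 99336, which is 0.0795% to 0.120% of all counts. RH HOMO 2 stood apart on the leading component of all genes (77.1) and RH cohort WT 1 came next (50.7), against -40.7 to 24.3 in the others. Crebbp itself was at 68.6 CPM (counts scaled to library size by the TMM method) in RH HOMO 2 and at 91.3 to 148.6 CPM elsewhere, with the knockout libraries (108.0 to 136.9) inside that range. A gene-level count covers exons outside a deleted part too, so it does not check the knockout label. Defining germinal centre markers were present in every library (summed level of 9 genes 2241 to 3494 CPM, lowest in RH HOMO 2), and T cell markers summed to 0.740 to 2.93 CPM over 7 genes, highest in RH HOMO 2. Macrophage and monocyte markers (7 genes, none called in any comparison by edgeR) summed to 14.5 to 18.1 CPM in KO and 14.7 to 18.2 CPM in KO cohort WT, and to 19.6 to 29.99 CPM in RH HOMO, 19.2 to 23.9 CPM in RH HET and 16.1 to 23.5 CPM in RH cohort WT, highest in RH HOMO 2. Of the 7, 6 were positive in RH HOMO and 6 in RH HET against RH cohort WT (median log2 difference 0.71 and 0.43), and 7 in RH cohort WT against KO cohort WT (0.49). Plasma cell markers, listed because plasma cells hold very high light chain RNA, summed to 1108 to 1254 CPM over 11 genes. Most of that sum was Jchain (387.8 to 531.9 CPM), Slamf7 (219.9 to 383.3), Mzb1 (184.7 to 287.5) and Xbp1 (113 to 151.6). Sdc1 was at 0.458 to 2.15, Prdm1 at 2.55 to 7.40, Fkbp11 at 0 to 0.427 and Tnfrsf17 at 0 to 0.373 CPM. The sum is thus not a measure of plasma cells. None of the 10 tested passed in any of the 5 comparisons by edgeR's quasi-likelihood test with Benjamini-Hochberg adjustment. Naive follicular B cell markers summed to 520.6 to 721.7 CPM over 7 genes, with none called between mutants and wild type. The genes called on the lists of other cell states in the homozygous comparisons were Rgs13 (lower in KO) and Mef2b (lower in RH HOMO) of the germinal centre list and Thy1 (higher in RH HOMO) of the T cell list, and the part of these markers in the results was not tested. No pair of libraries agreed within counting noise, as a library deposited again would (chi-square per degree of freedom 14.3 to 96.2 over the segments), and all 16 were kept; this check does not show that they came from different mice. Bulk RNA cannot tell more cells using a segment from more RNA per cell.

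Usage was spread over many segments in every library. Of the 163 segments, 15 had no count in any library and 105 had a count in all 16. A mean share of at least 0.1% of light chain V counts was reached by 84 segments and of at least 1% by 34. The 12 most used together took 36.6% (RH HOMO 2) to 47.3% (KO cohort WT 1) of light chain V counts. They were, in falling order of mean share, Igkv1-117, Igkv1-135, Igkv14-111, Igkv1-110, Igkv6-23, Iglv3, Igkv6-15, Iglv1, Igkv16-104, Igkv8-30, Igkv12-44 and Igkv10-96. Dividing counts by exonic length kept Igkv1-117 at the top and exchanged Igkv14-111 and Igkv1-135 behind it. The 60 pseudogenes together held 0.650% to 1.10% of the counts.

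Igkv1-117 had the highest mean share, 5.77% over the 16 libraries. Its share was 5.86, 5.39 and 5.17% in KO libraries, against 4.88, 5.17 and 6.68% in KO cohort WT libraries. In the RH cohort it was 5.97, 3.98 and 6.08% in RH HOMO, 4.98, 5.73, 7.001 and 5.71% in RH HET, and 6.96, 7.01 and 5.72% in RH cohort WT. The groups overlapped in both cohorts, and RH HOMO 2 was the lowest library. Igkv1-135, which lies 3113 kb from Igkj1 and so near the far end of the kappa locus, had the steadiest share of the 55 segments with a mean share of at least 0.5%. Its coefficient of variation over the 16 libraries was 12.98%, with shares of 3.95% to 6.15%, while the median of the 55 was 25.3% and the highest was 63.4%, in Igkv8-21. Igkv14-111 ranged from 2.94% in RH cohort WT 3 to 7.61% in KO cohort WT 2, the largest share of any segment in any library. Igkv1-117 was the leading segment of 8 libraries, Igkv1-135 of 4, and Igkv14-111 and Igkv6-23 of 2 each. Counting error was small beside these differences, since the widest 95% Wilson half-interval of any share was 0.270 percentage points. That interval covers counting error only, because reads without molecular identifiers are not independent molecules. The median biological coefficient of variation estimated by edgeR was 0.309 for the 109 tested segments, against 0.165 for all 16606 tested genes.

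**Figure D1:**
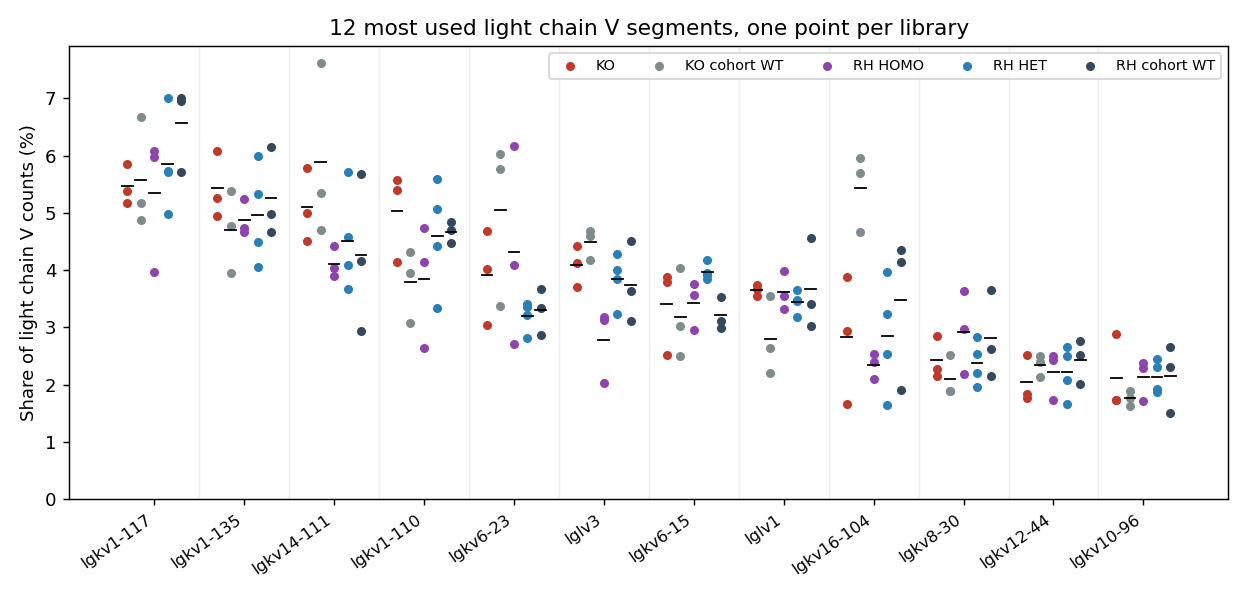
Share of light chain V counts (%, y axis) of the 12 segments with the highest mean share (x axis), with 1 point per library coloured by group and a black bar at each group's mean. Points of different groups interleave for most segments, and for Igkv16-104 the 3 KO libraries (1.66 to 3.89%) lie below the 3 KO cohort WT libraries (4.67 to 5.96%).

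The comparison of KO with KO cohort WT asked whether loss of Crebbp went with another light chain V usage. None of the 109 segments that passed the filter on low counts was called by edgeR (adjusted p under 0.05), where 1.3% of all tested genes were called. The filter passed 100 of the 103 V genes and 9 of the 60 pseudogenes, and the rest were too low to test. An unadjusted p under 0.05 was reached by 10 segments, or 9.17%, against 12.1% of all tested genes. DESeq2 called 1, Igkv3-2. The share of all genes that DESeq2 called was not computed in this or any later comparison, so its segment calls have no background. The median log2 difference of the segments was 0.07, against -0.00 over all tested genes, and 61 of 109 were positive. In CPM, 6 segments were higher in all KO than in all KO cohort WT libraries and 2 were lower, where 12.7% of all tested genes did so in each direction, so both shares lay under the background.

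Igkv16-104, the only member of its family, was among those that were lower. Its share was 2.94, 3.89 and 1.66% in KO libraries, against 4.67, 5.96 and 5.71% in KO cohort WT libraries. The groups did not overlap. Its level averaged 28.3 ± 10.7 CPM in KO and 54.9 ± 8.73 CPM in KO cohort WT (SD, n = 3 each), a log2 difference of -0.96 ± 0.33 (SE) that did not pass (edgeR adjusted p = 0.205). Across the RH cohort the same segment spread from 1.64% (RH HET 1) to 4.36% (RH cohort WT 3), with every group overlapping. Igkv16-104 and the other segments named for how they differed, apart from the called ones, were chosen after their values were seen.

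For the knock-in, no segment was called in RH HOMO against RH cohort WT by edgeR, where 1.57% of all tested genes were called. An unadjusted p under 0.05 was reached by 13 segments, or 11.9%, against 12.9% of all tested genes. DESeq2 called 2, Igkv3-2 and Igkv3-9. Igkv3-9 was low, at 0.353, 3.53 and 0.583 CPM in RH HOMO against 0.0524, 0.182 and 0.120 CPM in RH cohort WT. The high value was that of RH HOMO 2. The edgeR log2 difference of Igkv3-9, 3.59, ran from 1.925 to 4.04 when 1 library was left out, and none of those 6 fits called it. The smallest edgeR adjusted p was 0.0522, for Igkv3-2. The median log2 difference was 0.03, against 0.02 over all tested genes. In CPM, 7 of the 109 segments were higher in all RH HOMO than in all RH cohort WT libraries and 4 were lower. Of all tested genes 7.39% were higher in this way and 8.03% lower, so both shares lay under the background. RH HET against RH cohort WT gave 0 edgeR calls too, where 0.0181% of all tested genes were called, and 0 by DESeq2. Here 16 segments, or 14.7%, had an unadjusted p under 0.05 against 7.18% of all tested genes, and 14 of the 16 were lower in RH HET. The median log2 difference of the segments in RH HET was -0.09, against -0.01 over all tested genes. In CPM, 1 segment was higher and 5 were lower in all RH HET than in all RH cohort WT libraries, where 2.97% of all tested genes were higher and 3.52% lower. Light chain V counts as a whole took 0.0838, 0.0846, 0.0795 and 0.0904% of all counts in RH HET, against 0.0982, 0.0877 and 0.0860% in RH cohort WT, and these overlapped (exact permutation p = 0.286, two-sided).

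RH HOMO against RH HET gave 0 edgeR calls among segments and 0% over all tested genes, with 14 segments (12.8%) at an unadjusted p under 0.05 against 11.4% of all tested genes. In CPM, 7 segments were higher and 1 was lower in all RH HOMO than in all RH HET libraries, where 3.78% of all tested genes were higher and 4.28% lower. DESeq2 called 2, Igkv3-7 and Igkv12-41, again without a share over all genes by DESeq2 to set beside them. Igkv12-41 had shares of 1.26, 0.894 and 0.668% in RH HOMO, against 0.384, 0.474, 0.630 and 0.567% in RH HET. The 7 libraries did not overlap. Its log2 difference was 1.03 ± 0.21 (SE; edgeR adjusted p = 0.110). RH cohort WT libraries lay at 0.674, 0.859 and 0.936%, also above all 4 RH HET libraries, with 0.84, 0.739 and 0.783% in KO and 0.564, 0.706 and 0.578% in KO cohort WT.

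Of the kappa families, Igkv3 is the group of 13 segments nearest the J segments, 18.7 to 225 kb from Igkj1, and 9 of them are V genes. All but the pseudogene Igkv3-12-1 are on the strand of the J segments. Its summed share was 6.39, 7.14 and 5.86% in KO libraries, against 4.68, 5.05 and 4.78% in KO cohort WT libraries. It was 6.76, 9.42 and 6.11% in RH HOMO, 6.13, 5.17, 4.99 and 6.42% in RH HET, and 4.98, 4.68 and 5.05% in RH cohort WT. Every homozygous mutant library of either kind thus lay above every wild-type library. By share, RH HET overlapped RH cohort WT only through RH HET 3 (4.99%), which lay below RH cohort WT 3 (5.05%). RH HOMO 2 was the highest of the 16. Without it, RH HOMO 1 and 3 still lay above all 6 wild-type libraries. In CPM the margin in the RH cohort was narrow, with RH HOMO 3 at 53.6 and RH cohort WT 1 at 53.1. RH HET overlapped RH cohort WT more widely in CPM (39.1 to 57.9 against 41.9 to 53.1). The family was singled out after its values were seen, so no test is given. Among the 18 families with a mean share of at least 1%, 3 were higher in all KO than in all KO cohort WT libraries (Igkv3, Igkv1 and Iglv1). In that comparison 1 was lower (Igkv16). Of all tested genes, taken singly and in CPM, 12.7% were higher and 12.7% lower in this way. Iglv1 was higher only by 3.552% in KO 2 against 3.546% in KO cohort WT 2, and in CPM it overlapped. In RH HOMO against RH cohort WT 1 was higher (Igkv3) and none lower, beside 7.39% and 8.03% of all tested genes. Between the wild-type groups, which share the Crebbp label, 2 were higher (Igkv1 and Igkv8) and 1 lower (Igkv16), beside 17.4% and 16.8%. In RH HOMO against RH HET none was higher and 1 lower (Iglv3), beside 3.78% and 4.28%. All 18 overlapped in RH HET against RH cohort WT. All 9 tested Igkv3 members were positive in KO against KO cohort WT (median log2 difference 0.31). In RH HOMO against RH cohort WT 7 of 9 were (median 0.55), and in RH HET against RH cohort WT also 7 of 9 (median 0.28). The medians over all tested genes were -0.00, 0.02 and -0.01. None of the 9 was called by edgeR in any of these comparisons.

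Igkv3-2, which lies 23.8 kb from Igkj1, was the only segment whose CPM was higher in all mutant than in all wild-type libraries of both homozygous comparisons. That is 0.917% of the 109 tested segments, where 1.73% of all tested genes did so, and no segment was lower in both (1.82% of all tested genes). Its share was 1.21, 1.49 and 1.34% in KO libraries, against 0.79, 0.952 and 0.876% in KO cohort WT libraries. In the RH cohort it was 1.71, 1.42 and 1.26% in RH HOMO, 1.33, 1.20, 0.951 and 1.02% in RH HET, and 0.895, 0.841 and 0.756% in RH cohort WT. RH HET thus also lay above RH cohort WT in every library by share, while in CPM the groups overlapped. In KO the level was 13.8 ± 2.77 CPM against 8.80 ± 1.16 CPM in KO cohort WT (SD, n = 3 each), a log2 difference of 0.65 ± 0.20 (SE; edgeR adjusted p = 0.140). In RH HOMO it was 13.7 ± 2.73 CPM against 7.87 ± 1.53 CPM in RH cohort WT (SD, n = 3 each), a log2 difference of 0.80 ± 0.20 (SE; edgeR adjusted p = 0.0522). The RH HOMO difference passed in 5 of 13 alternative fits, with edgeR or DESeq2 adjusted p from 0.00695 to 0.253, and its log2 value stayed between 0.63 and 0.97.

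Igkv3-7 was at 0.938, 1.22 and 0.667% in KO libraries, against 0.622, 0.608 and 0.431% in KO cohort WT libraries. In RH HOMO it was at 1.22, 2.25 and 0.905%, in RH HET at 0.614, 0.685, 0.694 and 0.618%, and in RH cohort WT at 0.951, 0.928 and 0.732%. RH HOMO 2 held by far the highest share and RH HET the lowest of the RH groups. RH HOMO exceeded RH HET by a log2 difference of 1.31 ± 0.26 (SE; edgeR adjusted p = 0.110), which fell to 0.83 without RH HOMO 2. Igkv3-12, a close sequence relative of Igkv3-7, was at 1.53, 1.799 and 1.803% in RH HOMO, 1.44, 1.25, 1.16 and 1.38% in RH HET, and 0.978, 1.15 and 1.37% in RH cohort WT. Its log2 difference between RH HOMO and RH cohort WT was 0.55 ± 0.17 (SE; edgeR adjusted p = 0.122), with no overlap of the 2 groups.

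**Figure D2:**
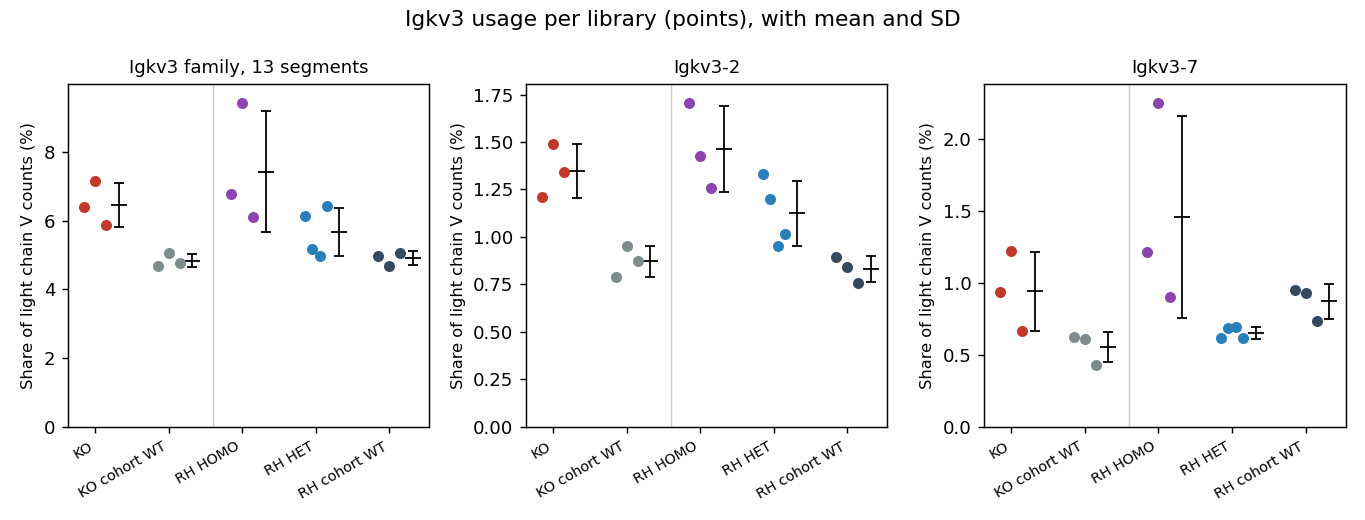
Share of light chain V counts (%, y axes from 0) of the 13 Igkv3 segments summed, of Igkv3-2 and of Igkv3-7, with 1 point per library by group (x axis) and the mean ± SD beside the points. For the family, KO libraries (5.86 to 7.14%) lie above KO cohort WT (4.68 to 5.05%), and RH HOMO libraries (6.11 to 9.42%) above RH cohort WT (4.68 to 5.05%).

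Between the wild-type groups, which differ in cohort and not in the Crebbp label, 2 segments were called by edgeR, 1 in each direction, where 3.17% of all tested genes were called higher and 1.88% lower, 5.06% in all. An unadjusted p under 0.05 was reached by 14 segments (12.8%), against 25.5% of all tested genes. In CPM, 3 segments were higher and 9 lower in all RH cohort WT than in all KO cohort WT libraries, where 17.4% of all tested genes were higher and 16.8% lower. Igkv8-21 was called higher and Igkv1-99 lower in RH cohort WT. DESeq2 called 1 higher and 4 lower. Igkv8-21 was at 17.2, 11.7 and 31.2 CPM in RH cohort WT libraries, against 6.57, 6.82 and 7.09 CPM in KO cohort WT libraries. The log2 difference was 1.56 ± 0.39 (SE; edgeR adjusted p = 0.0346). The same segment was at 9.70 to 25.7 CPM in RH HOMO, 9.83 to 29.4 CPM in RH HET and 6.89 to 8.33 CPM in KO, so that all 10 libraries titled RH lay above all 6 of the KO cohort, as they did by share of light chain V counts. RH cohort WT 1, whose batch tag names the KO cohort, was among the high libraries. Leaving out any 1 of the 6 wild-type libraries took the Igkv8-21 call away (edgeR adjusted p 0.0672 to 0.120, log2 difference 1.08 to 1.83).

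Igkv1-99 was at 1.94, 1.78 and 0.621 CPM in RH cohort WT libraries, against 9.86, 4.06 and 3.61 CPM in KO cohort WT libraries. The groups did not overlap, and KO cohort WT 1 was the highest. The log2 difference was -2.01 ± 0.45 (SE; edgeR adjusted p = 0.0223). Levels were 0.983 to 2.56 CPM in RH HOMO and RH HET and 2.57 to 5.98 CPM in KO, so the highest RH library, RH HOMO 2 at 2.561 CPM, and the lowest of the KO cohort, KO 1 at 2.57 CPM, were nearly level. By share of light chain V counts the cohorts overlapped, with KO 2 at 0.265% and RH HOMO 2 and 3 at 0.271 and 0.277%. The call held without KO cohort WT 3 or RH cohort WT 3 and was lost without any of the other 4 wild-type libraries (adjusted p 0.0302 to 0.116, log2 difference -2.26 to -1.40). With RH cohort WT 1 moved to the KO cohort, neither segment was called.

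No measure of the whole repertoire passed its test between groups after adjustment. The lambda share, which is the share of Iglv in light chain V counts, was 8.45, 8.04 and 8.03% in KO and 7.71, 8.52 and 6.81% in KO cohort WT. It was 6.83, 6.16 and 7.53% in RH HOMO, 8.41, 7.29, 7.42 and 8.18% in RH HET, and 6.74, 7.50 and 9.56% in RH cohort WT. The groups overlapped in every comparison. Differences of means were 0.49 points for KO against KO cohort WT, -1.09 for RH HOMO against RH cohort WT and -0.11 for RH HET against RH cohort WT, each with an adjusted exact permutation p of at least 0.812. The 6 measures were each compared over 5 pairs of groups, and p-values were adjusted over those 30 tests. With 3 libraries a group an exact two-sided test cannot go below 0.1, and with 4 against 3 not below 0.0571. An exact permutation test stratified by cohort, in which homozygous mutant libraries were set against wild-type libraries over 400 arrangements, can reach 0.005, and for the lambda share this exact permutation test gave -0.30 points (p = 0.655).

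The effective number of segments, the exponential of the Shannon entropy of the shares, counts how many equally used segments would give the same diversity. It was 55.5, 56.0 and 57.1 in KO, against 56.0, 54.2 and 53.6 in KO cohort WT. In the RH cohort it was 55.9, 65.0 and 54.2 in RH HOMO, 58.2, 55.9, 57.1 and 57.2 in RH HET, and 56.8, 54.1 and 56.2 in RH cohort WT. RH HOMO 2 stood alone at the top, and the others lay between 53.6 and 58.2. Without it, RH HOMO minus RH cohort WT was -0.63 segments, against 2.67 with it. Pielou evenness, the entropy over its maximum, ran from 0.828 to 0.870, and the highest value was again RH HOMO 2. The largest single share was 4.67% in RH HOMO 2 and 5.27% to 7.61% in the other libraries. The stratified test gave -0.96 points for the largest share (exact permutation p = 0.045, adjusted over the 6 measures p = 0.135), which fails the correction.

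**Figure D3:**
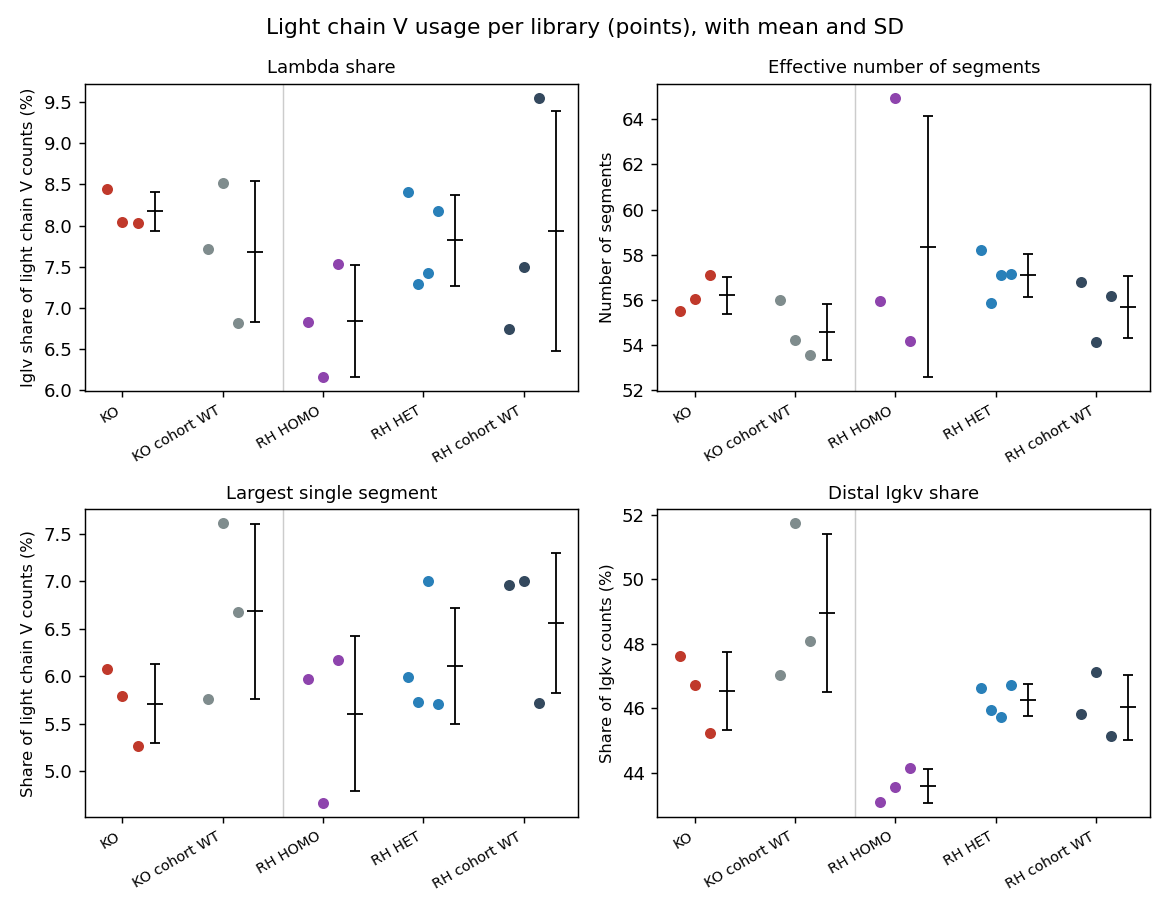
Lambda share, effective number of segments, largest single share and distal Igkv share (y axes, units as labelled, not starting at 0) per library by group (x axis), with the mean ± SD beside the points. RH HOMO 2 is the outlying point at 65.0 effective segments, and the 3 RH HOMO libraries (43.1 to 44.2%) have the lowest distal Igkv shares of the RH cohort.

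The lambda genes lie in 2 clusters on the minus strand of chromosome 16. In the annotation the upstream cluster holds Iglv2, Iglv3, Iglj2, Iglc2 and Iglc4, and the downstream cluster holds Iglv1, Iglj3, Iglc3, Iglj1 and Iglc1. Lambda V segments are known to join mostly within their own cluster, and Iglv1 is the usual partner of Iglj1 and Iglj3. Crebbp is on the same chromosome and strand at chr16:4081328-4213997, with Iglj2 at chr16:19200198-19200235 (GRCm38); whether that position bears on the lambda results was not tested. Iglv3 was at 30.3, 19.3 and 28.0 CPM in RH HOMO, 35.9, 27.9, 30.2 and 36.2 CPM in RH HET, and 33.1, 32.6 and 39.0 CPM in RH cohort WT. In CPM, RH HOMO lay below RH cohort WT in every library, with RH HOMO 2 the lowest, but by share of light chain V counts they overlapped (2.04 to 3.19% in RH HOMO, 3.11 to 4.51% in RH cohort WT). Iglv3 did not pass, with a log2 difference of -0.43 ± 0.15 (SE; edgeR adjusted p = 0.172). In KO it was at 38.8, 42.5 and 42.7 CPM, against 45.6, 48.3 and 41.5 CPM in KO cohort WT, which overlapped. Iglv2 stayed low in all libraries, at 2.93 to 6.70 CPM, and neither Iglv2 nor Iglv1 was called in any comparison. Iglv1 was at 32.1, 36.6 and 43.2 CPM in KO, against 25.6, 37.2 and 22.0 CPM in KO cohort WT (log2 difference 0.40 ± 0.17, SE, edgeR adjusted p = 0.318).

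Iglj2 and Iglc2, a joining and a constant gene of the upstream cluster and not V segments, moved apart in the 2 mutants, while Iglc4 of the same cluster was under 1 CPM in every library and was not called. Iglj2 was at 4.84, 4.44 and 4.52 CPM in RH HOMO, 6.63, 6.92, 7.18 and 5.46 CPM in RH HET, and 9.41, 10.6 and 11.9 CPM in RH cohort WT. No RH group overlapped another, and RH HET lay between RH HOMO and RH cohort WT. Iglj2 fell in RH HOMO against RH cohort WT by 1.21 on the log2 scale (SE 0.15, edgeR adjusted p = 0.000648), while the RH HET difference of -0.70 did not pass (edgeR adjusted p = 0.134). In KO, Iglj2 was at 11.5, 13.5 and 14.2 CPM, against 8.33, 9.79 and 7.49 CPM in KO cohort WT. It rose by a log2 difference of 0.61 ± 0.15 (SE; edgeR adjusted p = 0.0485), a call that was lost in each of the 6 fits without 1 library of either group (0.0738 to 0.231). Iglc2 was at 48.6, 56.9 and 41.1 CPM in RH HOMO, 55.6, 62.5, 64.8 and 52.5 CPM in RH HET, and 96.5, 89.7 and 87.2 CPM in RH cohort WT. RH HOMO and RH HET overlapped here, and both lay below RH cohort WT. Iglc2 fell in RH HOMO against RH cohort WT by 0.90 on the log2 scale (SE 0.12, edgeR adjusted p = 0.00149). Its level was 95.4, 114.1 and 113.1 CPM in KO and 73.3, 86.1 and 70.8 CPM in KO cohort WT (log2 difference 0.49, edgeR adjusted p = 0.0633). Iglj2 lies inside the annotated span of Iglc2, and the transcripts of Iglc2 and Iglc3 were 95.3% identical, against 69.5% for Iglc1 and Iglc2, so the counts of Iglj2, Iglc2 and Iglc3 may share or lose reads and are uncertain.

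Of the 13 listed joining and constant genes, all were tested. In KO against KO cohort WT 12 were positive and 1, Iglj2, was called. In RH HOMO against RH cohort WT 2 were positive and 2, Iglj2 and Iglc2, were called lower. None was called in RH HET against RH cohort WT. Between wild-type groups Iglj3 (log2 difference 0.57, edgeR adjusted p = 0.0194) and Iglc3 (0.43, edgeR adjusted p = 0.0447), both of the downstream cluster, were higher in RH cohort WT, and each call held in 1 of the 6 fits that left out 1 wild-type library (adjusted p 0.0242 to 0.0978 and 0.0343 to 0.180). A test of the difference of the 2 homozygous effects was added after these values were seen. It gave -1.82 ± 0.21 (SE, log2) for Iglj2 (edgeR adjusted p = 0.000893) and -1.39 ± 0.17 for Iglc2 (edgeR adjusted p = 0.00191), where 0.241% of all tested genes were called. By the same test 0 of the 109 V segments were called, with 6 at an unadjusted p under 0.05 and 0 calls by DESeq2. The lambda share of constant gene counts was 9.39, 8.30 and 9.99% in RH HOMO, 10.9, 9.75, 10.9 and 10.4% in RH HET, and 10.0, 11.8 and 12.6% in RH cohort WT.

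**Figure D4:**
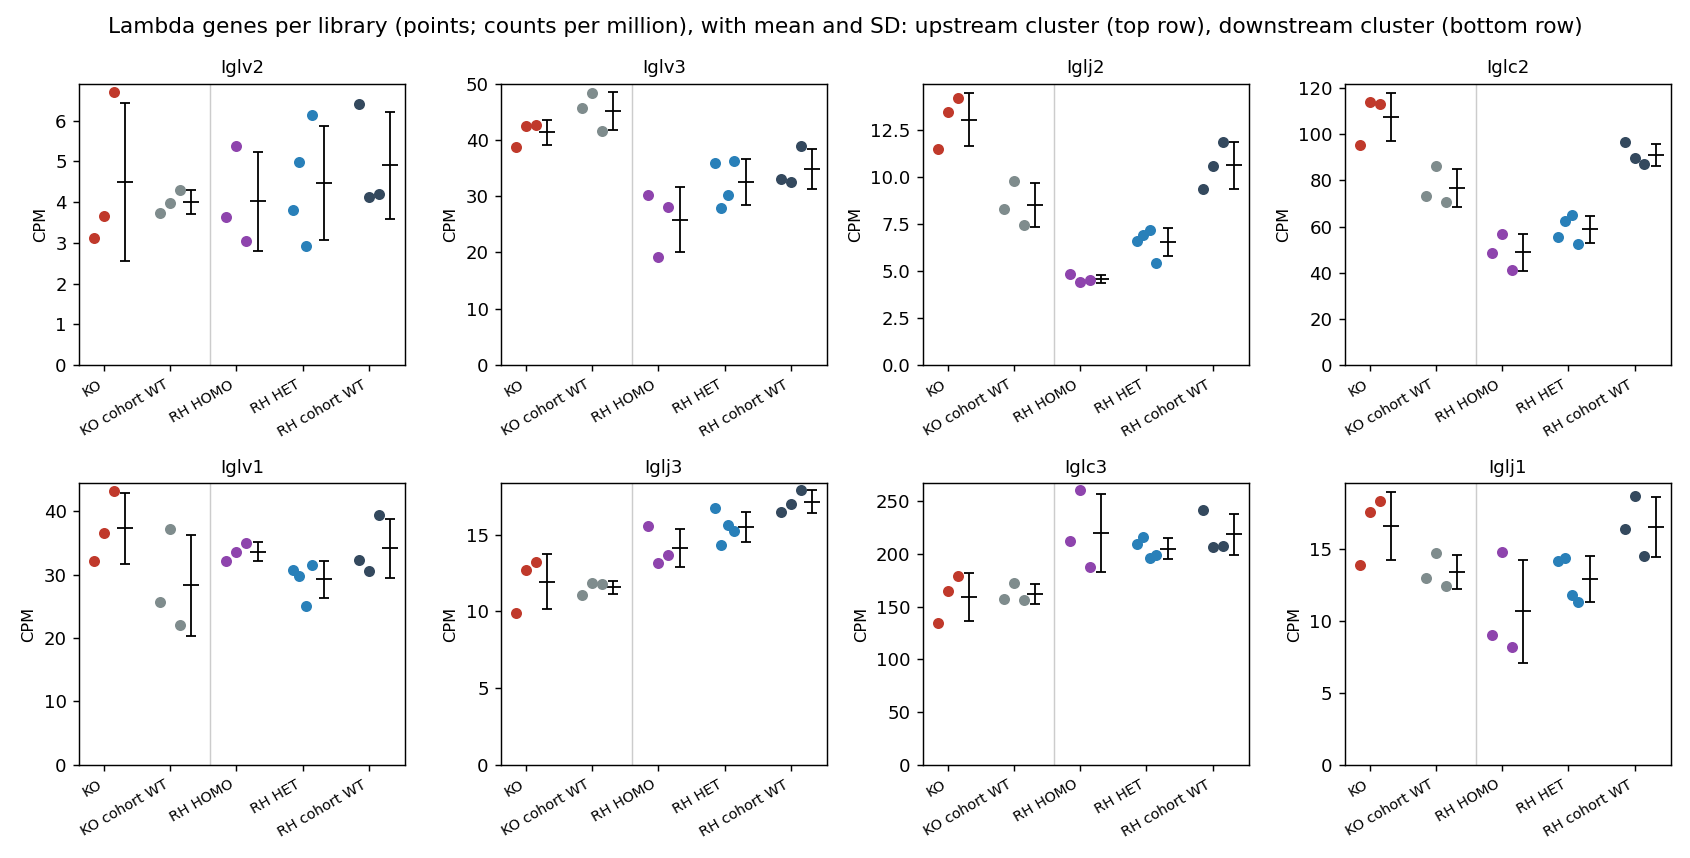
Levels of lambda genes (CPM, y axes from 0) per library by group (x axis), upstream cluster in the top row and downstream cluster in the bottom row, with the mean ± SD beside the points. Iglj2 and Iglc2 are lower in RH HOMO (4.44 to 4.84 and 41.1 to 56.9 CPM) than in RH cohort WT and higher in KO than in KO cohort WT, RH HOMO and RH HET overlap for Iglc2, while Iglv2 and Iglv1 overlap between RH HOMO and RH cohort WT.

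Position along the kappa locus was described with the distal Igkv share, the share of Igkv counts from the 72 segments lying beyond the midpoint of the Igkv span (1593 kb from Igkj1). It was 47.6, 46.7 and 45.3% in KO, against 47.0, 51.7 and 48.1% in KO cohort WT. In the RH cohort it was 43.1, 43.6 and 44.2% in RH HOMO, 46.6, 45.9, 45.8 and 46.7% in RH HET, and 45.8, 47.1 and 45.2% in RH cohort WT. The 3 RH HOMO libraries were the lowest of all 16. RH HOMO lay 2.42 points below RH cohort WT (exact permutation p = 0.1, the smallest that 3 against 3 can give) and 2.65 points below RH HET (exact permutation p = 0.0571, the smallest for that design), and neither passed after adjustment (p = 0.6). The KO difference was -2.42 points with overlap (exact permutation p = 0.2). Stratified by cohort, the distal share differed by -2.42 points in homozygous mutants (exact permutation p = 0.01, adjusted p = 0.06), and did not pass.

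Of 5 equal stretches of the locus, the one nearest the J segments (33 segments) held 35.3, 31.3 and 32.9% of Igkv counts in RH HOMO and 29.5, 31.2 and 31.3% in RH cohort WT. It held 30.9, 31.6 and 30.02% in KO and 28.7, 26.8 and 31.3% in KO cohort WT. The stretch from 1908 to 2537 kb, which contains Igkv14-111, Igkv1-110 and Igkv16-104, held 20.6, 20.8 and 21.2% in RH HOMO, below the 22.6, 22.3 and 21.9% of RH cohort WT. In KO that stretch held 23.9, 24.8 and 22.2%, against 24.3, 29.98 and 25.7% in KO cohort WT. The 75 Igkv segments on the strand of the J segments, which join by deletion, held 42.5% (KO 3) to 49.99% (KO cohort WT 2) of Igkv counts, and the 85 on the other strand held the rest.

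**Figure D5:**
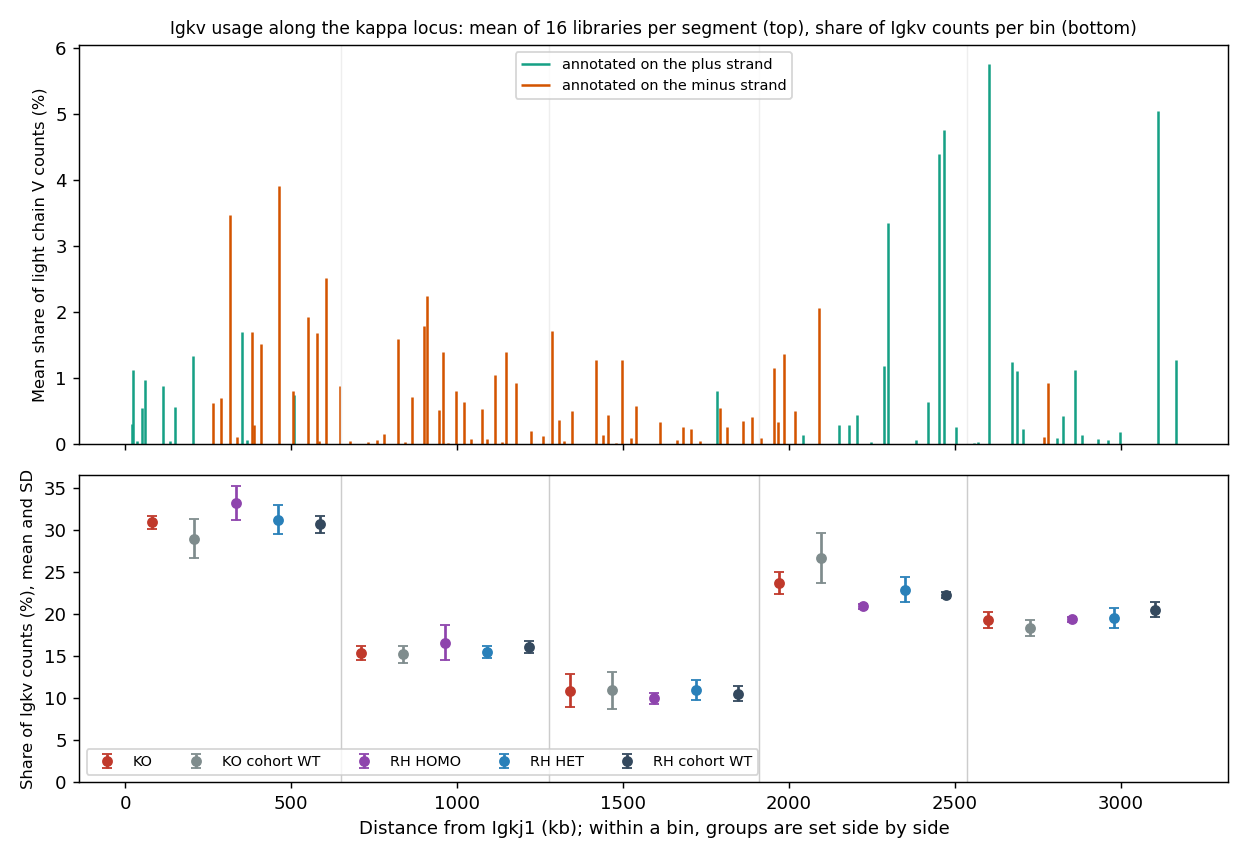
Igkv usage by distance from Igkj1 (kb, x axis): the top panel gives each segment's mean share of light chain V counts over 16 libraries (%, y axis) coloured by annotated strand, and the bottom panel the share of Igkv counts (%, y axis) in 5 equal stretches, mean ± SD per group. The stretch nearest Igkj1 holds the most counts in every group, and in the stretch from 1908 to 2537 kb RH HOMO (20.9%) has the lowest mean and KO cohort WT (26.6%) the highest.

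The kappa joining genes were compared as the share of each in Igkj counts. Igkj1 held 12.7, 17.9 and 18.1% in KO and 17.1, 15.3 and 18.6% in KO cohort WT. It held 24.5, 28.7 and 21.2% in RH HOMO, 22.7, 21.3, 20.1 and 24.3% in RH HET, and 31.7, 23.4 and 20.4% in RH cohort WT. By this share all 10 RH libraries exceeded all 6 of the KO cohort. The highest were RH cohort WT 1 and RH HOMO 2, the libraries that also stood apart on all genes. In CPM, Igkj1 overlapped between the cohorts (17.7 to 25.9 in RH, 16.1 to 24.3 in the KO cohort). Igkj4 was lower in all RH libraries (13.2 to 24.4 CPM) than in all of the KO cohort (26.3 to 34.5 CPM). The higher Igkj1 share thus does not mean a higher Igkj1 level. The ratio of Igkc to summed Igkv counts was 3.65 to 6.08 in the RH cohort, highest in RH HOMO 2, and 2.91 to 3.70 in the KO cohort. Igkc levels were 3687, 5390 and 2960 CPM in RH HOMO and 4686, 3477 and 3007 CPM in RH cohort WT. None of Igkc or the Igkj genes was called in any of the 5 comparisons by edgeR. Of the 10 listed recombination genes, 8 were tested and none was called in the 4 comparisons with mutants. Rag1, which cuts DNA for V to J joining together with Rag2, was at 0.0293 to 1.38 CPM, and Rag2 had no count in any library. The surrogate light chain pairs with the heavy chain before a light chain exists. Of the 4 genes listed under that name, Vpreb2 and Igll1 had no count in any library. Only Vpreb3 was tested, at 58.8 to 114 CPM and without a call, and its level is not read as surrogate light chain.

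Whole usage profiles were compared by the Bray-Curtis distance, which is 0 for identical shares and 1 for none in common. Pairs of different groups exceeded pairs of the same group by 0.0101 in the KO cohort (one-sided exact permutation p = 0.1 over 20 arrangements). That is the smallest p this test can give for 3 against 3, because exchanging the 2 group labels leaves the distances unchanged. The KO cohort test thus could not pass at 0.05, whatever the profiles. In the RH cohort the excess was 0.00240 (p = 0.285 over 4200 arrangements, exact permutation), which did not pass. Mean distances were 0.124 between KO libraries, 0.143 between KO cohort WT libraries and 0.143 between libraries of the 2 groups. RH HOMO libraries were the most unlike each other, at a mean of 0.166, against 0.140 within RH HET and 0.129 within RH cohort WT. RH HOMO 2 was the farthest from the other libraries, at a mean distance of 0.182, against 0.133 to 0.159 for the rest. No segment in any library reached both 5 times its median share and a share of 2%, the limit set for a segment expanded in 1 library.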

How the data were processed

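The deposited file is a table of whole-number read counts per gene symbol; per the submitters' processing notes, CASAVA 1.8, HISAT2 and featureCounts were used with mm10, and per the labels' protocols the libraries were TruSeq RNA v2, a kit that does not mark strand. How multi-mapped reads were counted is not given in the sources used here. All values were computed from these counts. The main test was edgeR 4.0.16 (R 4.3.3): filterByExpr, TMM scaling, 5 group means over all 16 libraries (11 residual degrees of freedom), quasi-likelihood test, Benjamini-Hochberg adjustment over 16606 genes and adjusted p under 0.05. It was tested on simulated counts. DESeq2 1.42.0 and other scalings, filters and library sets were alternatives. Shares divide a segment's count by all Igkv plus Iglv counts of the library. Exact permutation tests over libraries enumerated every arrangement in Python, and the test between pairs of groups was checked against scipy 1.17.1 on random numbers. Annotation and sequences came from GENCODE M21 (GRCm38). Named segments were the 12 with the highest mean share, all Iglv, the leading segment of each library and all called segments, with constant, joining, recombination and surrogate light chain genes. The members, lists and tests were chosen with earlier results of these data known.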

Additional observations from a re-analysis of the deposited data

Results flagged for a closer look

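The effects of homozygous RH knock-in and of knockout on Iglj2 and Iglc2 differed, by a test of the difference itself that was added after the data were seen (edgeR quasi-likelihood test, Benjamini-Hochberg adjustment). For Iglj2 the difference, RH HOMO less KO, was -1.82 (log2, adjusted p = 0.000893), and for Iglc2 it was -1.39 (adjusted p = 0.00191). Under 19 other settings, 12 of which left out 1 library each, both remained called, with -1.95 to -1.75 for Iglj2 and -1.52 to -1.28 for Iglc2. The RH HOMO and KO groups were compared with different wild-type groups, and cohort and allele cannot be told apart.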

How the results depend on the processing

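No paired analysis was possible because the replicate numbers follow accession order and pair nothing. No symbol carries the suffix -ps, so the planned exclusion of pseudogenes by symbol removed no segment, and exclusion by GENCODE biotype and division by exonic length were added after seeing the data. Of 670 recomputed values of the repertoire measures and call counts, 614 kept their direction and their side of the threshold (counts stayed within 1.5 times), and of 380 for the genes followed by name, 321 did, with 25 newly past it, 34 no longer past it and none of opposite sign. The cause of the changes was not tested.

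Segments called in KO against KO cohort WT, 0 in each direction, became 1 higher with DESeq2, 1 lower without a count filter, and 2 higher and 1 lower with the 6 libraries alone. For RH HOMO against RH cohort WT the count higher became 1 with scaling to the light chain V total and 2 without a count filter or with DESeq2. For RH HOMO against RH HET it became 2 in the same pair of settings. Between wild-type groups, 1 higher and 1 lower became 2 and 4 without a count filter, 1 and 4 with DESeq2, 1 and 3 with the 6 libraries alone, 0 and 0 with RH cohort WT 1 in the KO cohort, and 2 and 2 without RH cohort WT 1 and RH HOMO 2. With scaling to the light chain V total, the median log2 difference of all tested genes was 0.14 in RH HET against RH cohort WT. It was -0.12 in RH HOMO against RH HET and 0.11 between wild-type groups. With TMM scaling these medians were -0.01, 0.02 and 0.01. When 1 library was left out, the count higher was 0 to 1 in RH HOMO against RH cohort WT, and between wild-type groups 0 to 0 higher and 0 to 2 lower.

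Without Igkv1-117, the distal share in homozygous mutants against wild type within cohorts was -2.13 points and passed (exact permutation test, adjusted p = 0.03; 0.05 to 0.206 under the other alternatives), and the largest share in RH HET minus RH cohort WT was 0.31 points. With RH cohort WT 1 in the KO cohort, evenness in KO minus KO cohort WT was -0.000749 and the profile distance of the RH cohort -0.000317. Without RH cohort WT 1 and RH HOMO 2, RH HOMO minus RH HET was -0.00300 for evenness and -2.02 effective segments, RH HOMO minus RH cohort WT was -0.0849 effective segments, and the RH cohort profile distance was -0.00183. With constant genes, the lambda share of RH cohort WT minus KO cohort WT was -0.13 points.

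Leaving out 1 library turned the sign of differences that had not passed. The light chain V share of all counts ran from -0.000825 to 0.0124 points in KO minus KO cohort WT and from -0.000816 to 0.00530 points in RH HOMO minus RH cohort WT. The lambda share ran from -0.60 to 0.11 points in homozygous mutants within cohorts, from -0.56 to 0.84 between wild-type groups and from -0.71 to 0.70 in RH HET minus RH cohort WT. The largest share ran from -0.58 to 0.34 points between wild-type groups, and the distal share from -0.21 to 0.77 points in RH HET minus RH cohort WT. Evenness ran from -0.00300 to 0.0122 in RH HOMO minus RH HET and from -0.00159 to 0.00870 in RH HET minus RH cohort WT. Effective segments ran from -0.63 to 4.75 in RH HOMO minus RH cohort WT and from -2.02 to 3.36 in RH HOMO minus RH HET, lowest without RH HOMO 2. The RH cohort profile distance ran from -0.000317 to 0.00812. Depth left segments under the count filter untested, and the number of libraries limited the exact tests.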
